A study of Homo sapiens with 26 samples.

Results

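Baseline gene expression was compared between the diffuse large B-cell lymphoma (DLBCL) cell lines that were resistant and those that were sensitive to vincristine (O), the microtubule drug of the R-CHOP regimen. The 8 lines were chosen by the class that the sample labels give for the vincristine response, out of 26 human B-cell tumour lines, 14 of them counted as DLBCL and 12 as multiple myeloma (MM). The 4 resistant lines were DB, OCI-Ly7, RIVA and SU-DHL-8, and the 4 sensitive lines were FARAGE, OCI-Ly19, SU-DHL-5 and MC-116. MC-116 is labelled an undifferentiated lymphoma and was counted as DLBCL. The 4 lines of the intermediate class (HBL-1, NU-DUL-1, OCI-Ly3 and U2932) and the 2 lines without a vincristine value (NU-DHL-1 and SU-DHL-4) were left out of the comparison. RNA was taken from untreated, exponentially growing cultures, so the values describe the lines before any drug and not their reaction to it. Each line was measured on 1 array, and a class therefore holds 4 different established lines, each a single line from its own tumour, with no repeat culture. Serum in the medium was 20% for DB and 10% for the other resistant lines, and 10% for FARAGE and OCI-Ly19, 20% for SU-DHL-5 and 15% for MC-116.

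Vincristine binds the ends of tubulin dimers, blocks the growth of microtubules and holds dividing cells in mitosis until the spindle checkpoint fails or the cell dies. Resistance to vinca alkaloids has been tied in other systems to efflux by the P-glycoprotein ABCB1, to the composition and stability of the tubulin polymer, and to the threshold for mitochondrial apoptosis set by the BCL2 family. The lines are B-cell tumours, and the B-cell markers bore this out. CD79A lay between 11.54 and 12.16 on the log2 scale in the resistant lines and between 10.23 and 12.50 in the sensitive lines, and PAX5, the factor that keeps B-cell identity, between 10.17 and 11.56 in the resistant lines and between 10.60 and 11.21 in the sensitive lines. The T-cell genes CD3D, CD3E and CD3G and the myeloid genes CD14 and CSF1R were at 5.65 or below in all 8 lines. The median difference between the classes was 0.05 over the 12 T-cell markers measured, −0.09 over 10 NK and cytotoxic markers, 0.08 over 9 myeloid markers and 0.03 over 12 stromal and endothelial markers. Single members of these lists were expressed in some lines, and the T-cell list ran from −1.36 for LCK, which was above 8 in 7 lines, to 2.18 for TRBC1. LYZ reached 6.96 in SU-DHL-8, COL1A1 8.37 in MC-116 and PECAM1 8.46 in OCI-Ly7. Their part in the differences below was not tested. Decorin (DCN), a stromal matrix gene, was at 12.05 in DB and 11.60 in SU-DHL-5 and was at 5.79 or below in the other 6 lines, so 1 line of each class carried it.

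The response is given in the labels as AUC0, the area enclosed by the dose response curve above 0, for which a high value means resistance. The vincristine AUC0 was 131 (95% CI: 118, 142) in DB, 114 (102, 119) in OCI-Ly7, 109 (93, 118) in RIVA and 126 (81, 129) in SU-DHL-8. It was 56 (48, 61) in FARAGE, 54 (39, 64) in OCI-Ly19, 58 (46, 68) in SU-DHL-5 and 62 (32, 121) in MC-116. These values defined the classes and are a description only. The interval of MC-116 spanned 89 units and reached into the range of the resistant lines, so its class is the least certain of the 8. The nearest lines outside the classes were NU-DUL-1 at 90, below RIVA, and OCI-Ly3 at 75, above MC-116.

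The vincristine resistant lines were also, on average, less sensitive to doxorubicin (H), a topoisomerase II poison, but the classes overlapped. The doxorubicin AUC0 was 276 in DB, 325 in OCI-Ly7, 327 in RIVA and 222 in SU-DHL-8, against 180 in FARAGE, 167 in OCI-Ly19, 202 in SU-DHL-5 and 272 in MC-116. The means were 287.5 ± 49.6 in the resistant and 205.2 ± 46.8 in the sensitive lines (SD, n = 4 each), and the difference of 82.2 had a two-sided exact permutation p of 0.0571, or 0.114 adjusted over the 2 drugs, where 0.0286 is the smallest p the design allows. SU-DHL-8 had the lowest doxorubicin value of the resistant lines, below that of the sensitive line MC-116. For cyclophosphamide (C), an alkylating drug that was given as mafosfamide, AUC0 was 346 in DB, 258 in OCI-Ly7, 296 in RIVA and 271 in SU-DHL-8, against 311 in FARAGE, 202 in OCI-Ly19 and 165 in SU-DHL-5, with MC-116 untested. The means of 292.8 ± 38.8 (SD, n = 4) and 226 ± 75.9 (SD, n = 3) differed by 66.8, with an exact permutation p of 0.229 and an adjusted p of 0.229. What follows therefore compares lines that also differed in their doxorubicin response, and the part of that response in the differences cannot be told apart by the classes alone.

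**Figure D1:**
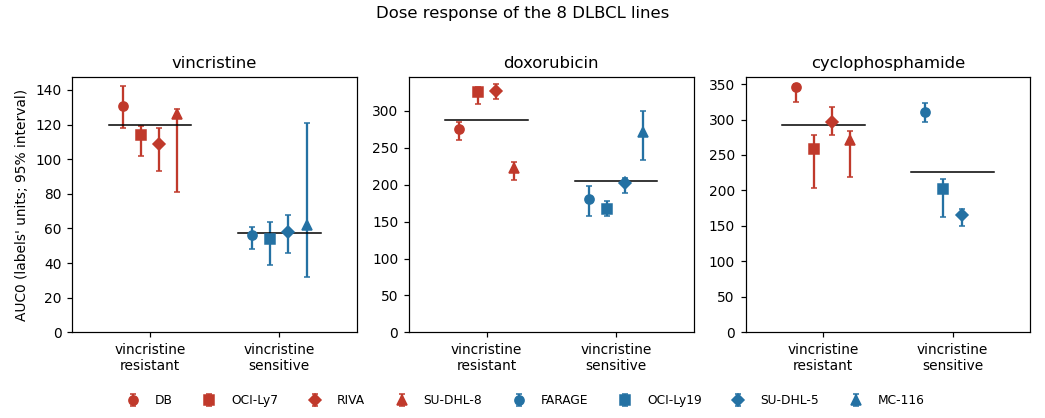
AUC0 of the 8 DLBCL lines for vincristine, doxorubicin and cyclophosphamide (vertical axes, in the units of the labels), with the vincristine resistant lines in red and the sensitive lines in blue, bars giving the 95% intervals of the labels and horizontal lines the class means. The vincristine points of the resistant lines lie between 109 and 131 and those of the sensitive lines between 54 and 62, while the classes overlap for the other drugs.

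Of the 54613 probe-sets tested, 2 passed an adjusted p of 0.05 (0.00366%), and both belonged to 1 gene, PAM, which was lower in the resistant lines. PAM encodes peptidylglycine alpha-amidating monooxygenase, the enzyme of the secretory pathway that amidates the ends of peptide hormones. The gene lies on chromosome 5. On the probe-set with its largest SD over the DLBCL lines its log2 level was 3.47 in DB, 3.96 in OCI-Ly7, 3.48 in RIVA and 3.57 in SU-DHL-8, against 8.91 in FARAGE, 8.86 in OCI-Ly19, 7.51 in SU-DHL-5 and 8.53 in MC-116. All 4 resistant lines sat among the lowest 18.5% of the probe-sets of their arrays, and all 4 sensitive lines above 74.8% of theirs. The means were 3.62 ± 0.23 and 8.45 ± 0.65 (SD, n = 4 each), a difference of −4.83 (95% CI: −5.55, −4.11) with an adjusted p of 0.0218 in limma. A second probe-set gave −3.79 with an adjusted p of 0.0377. On the third, the groups did not overlap either, and the difference of −2.72 had an adjusted p of 0.369.

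In the lines outside the comparison PAM was on both sides of this gap. Among the intermediate lines PAM was at 7.68 in HBL-1, 3.65 in NU-DUL-1, 6.46 in OCI-Ly3 and 8.73 in U2932, and among the untested lines at 7.01 in NU-DHL-1 and 3.61 in SU-DHL-4. The order of these 4 lines by PAM was not that of their AUC0, which was 85 in HBL-1, 90 in NU-DUL-1, 75 in OCI-Ly3 and 85 in U2932. As a slope on AUC0 over all 12 DLBCL lines tested, PAM had an adjusted p of 0.62 in limma. In MM all 12 lines expressed the gene, between 6.75 and 10.30. There the vincristine resistant lines had 8.78 in KMM-1, 8.84 in LP-1, 10.01 in MOLP-8 and 9.88 in NCI-H929, against 8.22 in MM1S, 7.87 in OPM-2, 10.30 in RPMI-8226 and 7.45 in U-266 among the sensitive lines. The MM difference was 0.92, with an adjusted p of 1. The difference between the diseases was −5.75 (SE 0.75) with an adjusted p of 0.13 in the interaction test, so a disease-specific difference was not established at the threshold, although this probe-set had the smallest p of that test. Across all probe-sets the interaction called 0 and the MM comparison called 0, with 1916 and 2279 probe-sets at an unadjusted p under 0.05 in limma.

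The call on PAM rested on the full set of 8 lines. The difference stayed between −5.14 and −4.68 as each line was left out in turn, but the adjusted p lay between 0.00103 and 0.223 and was under the threshold only without SU-DHL-5. It was 0.179 without DB, 0.0758 without OCI-Ly7, 0.223 without RIVA, 0.213 without SU-DHL-8, 0.0622 without FARAGE, 0.051 without OCI-Ly19 and 0.114 without MC-116. With the doxorubicin AUC0 as a covariate the difference was −4.79 with an adjusted p of 0.642, and with serum as a covariate −4.92 with an adjusted p of 0.0109.

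**Figure D2:**
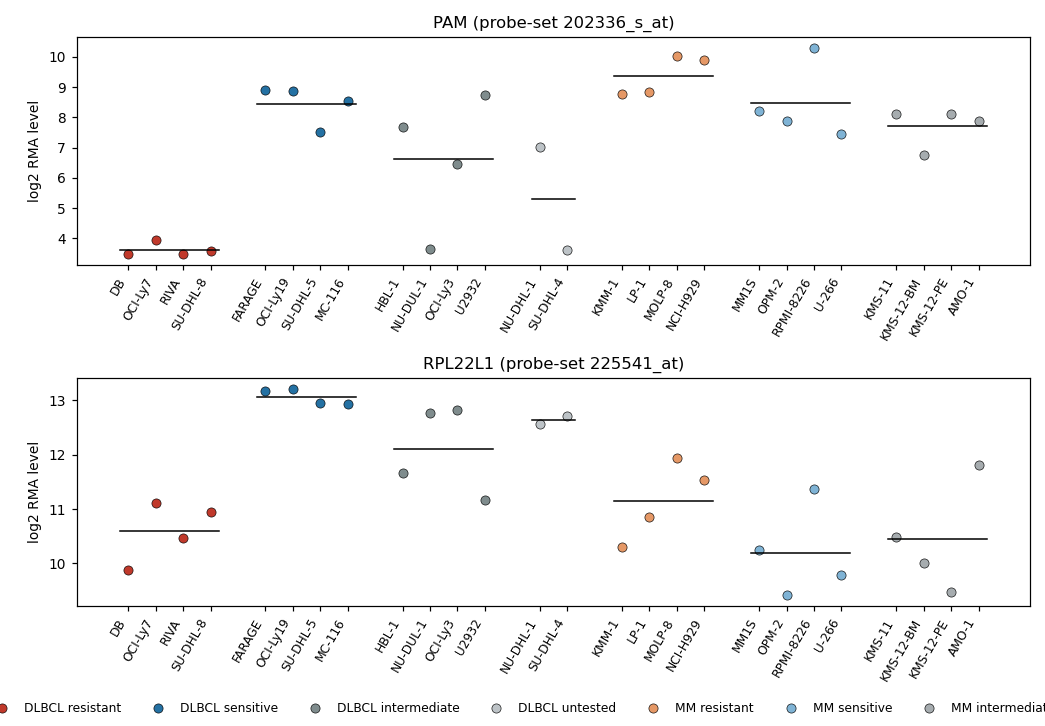
Log2 RMA level (vertical axes) of PAM and RPL22L1 in every DLBCL and MM line, grouped by disease and vincristine class, with horizontal lines at the class means. PAM lies between 3.47 and 3.96 in the 4 resistant DLBCL lines and between 7.51 and 8.91 in the 4 sensitive lines, and in MM every line is at 6.75 or above.

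PAM has 3 start sites in RefSeq (GRCh38.p14). The stretch before the most upstream of them is chr5:102754533-102754782 on the plus strand. It is shown because PAM, the only gene called, was near the floor in the resistant lines and well expressed in the sensitive lines. Capitals mark its 11 CpG dinucleotides.
PAM: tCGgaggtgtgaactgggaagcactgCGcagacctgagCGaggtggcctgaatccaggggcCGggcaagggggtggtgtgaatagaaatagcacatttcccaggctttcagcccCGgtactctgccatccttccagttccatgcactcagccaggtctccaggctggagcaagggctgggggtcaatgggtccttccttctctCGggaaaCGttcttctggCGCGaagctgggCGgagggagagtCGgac
In windows of 300 bases, from 250 before to 50 after a start, the 3 PAM starts held 13, 39 and 7 CpG dinucleotides, against a median of 14 over all RefSeq windows, and 8.71% of all windows held 39 or more. No methylation was measured in these lines here.

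Outside PAM no gene passed, and every gene given from here on had an adjusted p in limma that rounded to 0.99 or above unless another value is printed. At an unadjusted p under 0.05 there were 1970 probe-sets (3.61%), 1001 of them higher (1.83%) and 969 lower (1.77%) in the resistant lines. The 4 resistant and 4 sensitive lines did not overlap for 1294 probe-sets (2.37%). With 1 probe-set per gene, 798 genes of 19775 were at an unadjusted p under 0.05 (4.04%), 383 higher (1.94%) and 415 lower (2.1%), and the classes did not overlap for 478 (2.42%), 242 higher (1.22%) and 236 lower (1.19%). The median difference over these genes was 0.01.

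RPL22L1, on chromosome 3, a paralogue of the ribosomal protein L22, came after PAM in order of p. It was at 9.88 in DB, 11.11 in OCI-Ly7, 10.46 in RIVA and 10.95 in SU-DHL-8, against 13.17 in FARAGE, 13.22 in OCI-Ly19, 12.96 in SU-DHL-5 and 12.94 in MC-116. The sensitive lines lay close together, and the resistant lines were all lower and more scattered. The difference was −2.47 (95% CI: −3.08, −1.86) with an adjusted p of 0.297. In the 6 DLBCL lines outside the comparison the level lay between 11.18 in U2932 and 12.82 in OCI-Ly3. In MM the difference was 0.96 in the opposite direction, with an interaction of −3.43 (SE 0.59) and an adjusted p of 0.822.

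Several genes with large differences were low to intermediate in the resistant lines and higher in the sensitive lines. LMO2, a transcriptional partner protein of germinal centre B cells, was at 6.87 in DB, 5.34 in OCI-Ly7, 5.32 in RIVA and 4.67 in SU-DHL-8, against 12.36 in FARAGE, 7.31 in OCI-Ly19, 9.61 in SU-DHL-5 and 10.45 in MC-116. The lowest sensitive line, OCI-Ly19, lay close above the highest resistant line, DB, and the other 3 sensitive lines were well apart. The difference was −4.38 (95% CI: −6.72, −2.04). NEK6, a mitotic kinase that acts in spindle assembly, followed the same order of lines with 6.71, 5.72, 5.61 and 4.98 in DB, OCI-Ly7, RIVA and SU-DHL-8 and 10.74, 6.87, 8.57 and 9.30 in FARAGE, OCI-Ly19, SU-DHL-5 and MC-116. LYSMD2 was between 4.56 and 5.98 in the resistant and between 7.42 and 10.98 in the sensitive lines. The DLBCL lines outside the comparison all lay above the resistant lines, between 7.27 in NU-DUL-1 and 10.80 in U2932.

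ITGB2, the β2 integrin subunit of leukocyte adhesion receptors, had a smaller scatter. It was at 7.14 in DB, 7.67 in OCI-Ly7, 7.60 in RIVA and 8.83 in SU-DHL-8, against 9.93 in FARAGE, 9.59 in OCI-Ly19, 10.35 in SU-DHL-5 and 10.85 in MC-116. The difference was −2.37 (95% CI: −3.31, −1.43), and all 3 probe-sets of the gene had the same sign. In the MM lines it was −0.65. CD70, the ligand of CD27, differed by −1.63, LGALS8, a galectin, by −3.10, and BMP2K, a kinase of endocytosis, by −1.68. The remaining genes of the smallest p among those lower in the resistant lines had narrow spreads and small differences. The peroxisomal dehydrogenase-like HSDL2 differed by −0.47, the mitochondrial unfoldase CLPX by −0.84, the leucine catabolic enzyme MCCC2 by −0.91, the co-chaperone DNAJC7 by −0.51, CCDC138 by −0.54 and RPS27L, a ribosomal protein paralogue, by −1.17. UNC13C (−3.94) and NCALD (−2.82) owed their differences to FARAGE and MC-116, since in OCI-Ly19 and SU-DHL-5 UNC13C was at 3.78 and 3.53, close to DB at 3.50, and NCALD was at 6.14 and 5.64, with SU-DHL-8 at 5.13.

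Among genes without overlap, the largest differences were smaller on the side that was higher in the resistant lines. NBEA, a neuronal scaffold of vesicle traffic, was at 6.62 in DB, 6.54 in OCI-Ly7, 7.29 in RIVA and 5.71 in SU-DHL-8, against 4.26 in FARAGE, 5.50 in OCI-Ly19, 4.38 in SU-DHL-5 and 4.29 in MC-116, a difference of 1.93 (95% CI: 1.02, 2.84). GNAZ, the α subunit of the G protein Gz, was between 7.70 and 8.85 in the resistant and between 5.81 and 6.98 in the sensitive lines, a difference of 1.63 (95% CI: 0.83, 2.43). GDAP1, a protein of the outer mitochondrial membrane, differed by 2.03, and by 1.44 without DB, which was at 9.70 while the other resistant lines lay between 7.25 and 7.44. CEP128, a centriole protein, differed by 1.59 in DLBCL and by 2.34 in MM. IFT52, a component of the transport along ciliary microtubules, differed by 1.03, and the phosphoinositide phosphatase FIG4 by 0.89. WWOX, an oxidoreductase at a fragile site, differed by 0.92 with 5 of 5 probe-sets of the same sign. The GPI-anchor transamidase subunit PIGU (0.98), the pyruvate dehydrogenase kinase PDK2 (0.74), the hydrolase ABHD10 (0.88), the Fanconi protein FAAP24 (0.44), the zinc finger genes ZNF431 (0.62) and ZNF320 (1.56), TMEM170B (1.96), CCDC71L (1.68) and the demethylase ALKBH3 (1.78) were also higher without overlap. ALKBH3 had a wide interval (95% CI: −0.20, 3.75) and differed by 0.90 without DB, and OCI-Ly7 at 5.58 and SU-DHL-8 at 5.51 were close to SU-DHL-5 at 5.44. PDCD6P1 (1.64) and MTMR9LP (0.46) are pseudogenes, whose probes may also bind the transcript of the parent gene.

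**Figure D3:**
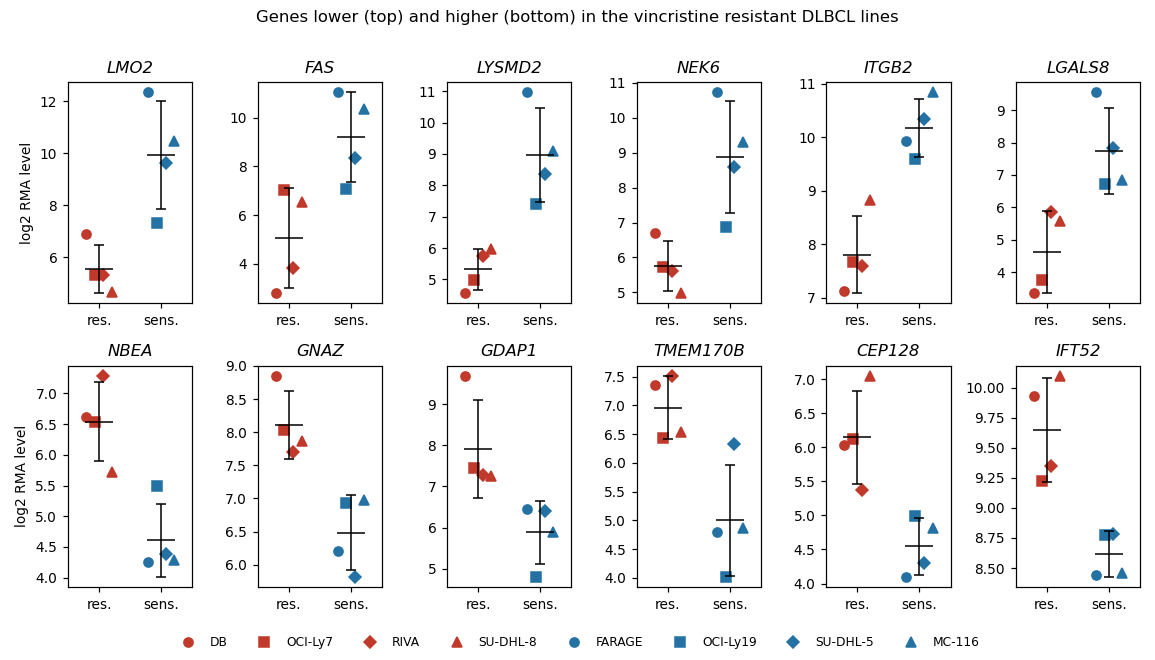
Log2 RMA level (vertical axes, each panel with its own range) of 6 genes that were lower (top) and 6 that were higher (bottom) in the resistant lines, with 1 point per line, resistant in red and sensitive in blue, and the class mean with SD in black. None of these 12 genes passed the adjusted threshold. OCI-Ly19 is the sensitive line closest to the resistant class for LMO2, FAS, LYSMD2, NEK6, ITGB2 and LGALS8.

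The genes of the drug's own target did not separate the classes. The 5 α-tubulins measured had a median difference of −0.03, the 8 β-tubulins of 0.22, the 11 other tubulins and folding factors of 0.12 and the 27 microtubule binding proteins of 0.06. In any of the 4 lists 0 members were at an unadjusted p under 0.05 in limma and 0 were without overlap. Over all genes the shares were 4.04% and 2.42%, from which a count of 0 in lists this small differs little. The β-tubulin TUBB was between 12.41 and 13.29 in the resistant and between 12.77 and 13.15 in the sensitive lines, a difference of −0.15 (95% CI: −0.63, 0.33), and the α-tubulin TUBA1B differed by −0.02 (95% CI: −0.40, 0.35), so differences over 0.63 in either direction lay outside these intervals. TUBB3, the isotype most often tied to resistance against microtubule drugs, differed by 0.22 (95% CI: −0.51, 0.95), and TUBB4B by −0.39, TUBB6 by 0.39 and TUBA4A by −0.17. TUBB2A was at 10.81 in DB, 10.68 in OCI-Ly7, 10.71 in RIVA and 8.92 in SU-DHL-8, against 12.08 in FARAGE, 8.78 in OCI-Ly19, 8.20 in SU-DHL-5 and 8.07 in MC-116, so 3 resistant lines and 1 sensitive line were high. TUBB2B was high in 1 resistant line, RIVA, at 9.59. The microtubule stabiliser MAP4 differed by −0.36 (95% CI: −1.22, 0.50) and stathmin (STMN1), which takes up tubulin dimers, by 0.54 (95% CI: −0.32, 1.39).

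Nor did the main efflux pumps separate the classes. ABCB1, the main transporter of vincristine, was at 3.70 in DB, 3.71 in OCI-Ly7, 3.83 in RIVA and 4.39 in SU-DHL-8, against 3.78 in FARAGE, 3.73 in OCI-Ly19, 3.56 in SU-DHL-5 and 3.52 in MC-116. All of these values lie near the floor of the array, where a level cannot be told from background, and the difference of 0.26 (95% CI: −0.14, 0.66) is not a measure of transporter activity. ABCC1 differed by 0.09 (95% CI: −0.85, 1.03), ABCC2 by 0.04 and ABCG2 by −0.29. Of the 11 transporters measured, 1, ABCC5, had no overlap, where 2.42% of all genes had none. It was at 8.09 in DB, 7.82 in OCI-Ly7, 7.54 in RIVA and 8.28 in SU-DHL-8, against 6.26 in FARAGE, 7.41 in OCI-Ly19, 7.50 in SU-DHL-5 and 7.45 in MC-116. RIVA and SU-DHL-5 were almost level, and 2 of the 3 ABCC5 probe-sets were higher in the resistant lines. The vault protein MVP was at 5.98 to 7.03 in the resistant and 6.13 to 9.57 in the sensitive lines. CYP3A4, CYP3A5 and POR, of the cytochrome P450 route that breaks vincristine down, differed by 0.24 or less.

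Genes of mitosis and growth had medians near 0. The 28 proliferation genes had a median difference of −0.02, the 14 mitotic kinesins of −0.06 and the 13 spindle checkpoint genes of −0.06. Of the 14 kinesins 2 that act in cytokinesis, KIF23 (−0.51) and KIF20A (−0.50), were at an unadjusted p under 0.05 on the lower side, where 2.1% of all genes were, and UBE2C (0.53), which promotes the exit from mitosis, was so on the higher side. Checkpoint members ran from −0.27 for CDC20 and TTK to 0.48 for BIRC5. Without MC-116 all 14 kinesins were lower (median −0.225), and without OCI-Ly19 6 of them were (median 0.02).

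**Figure D4:**
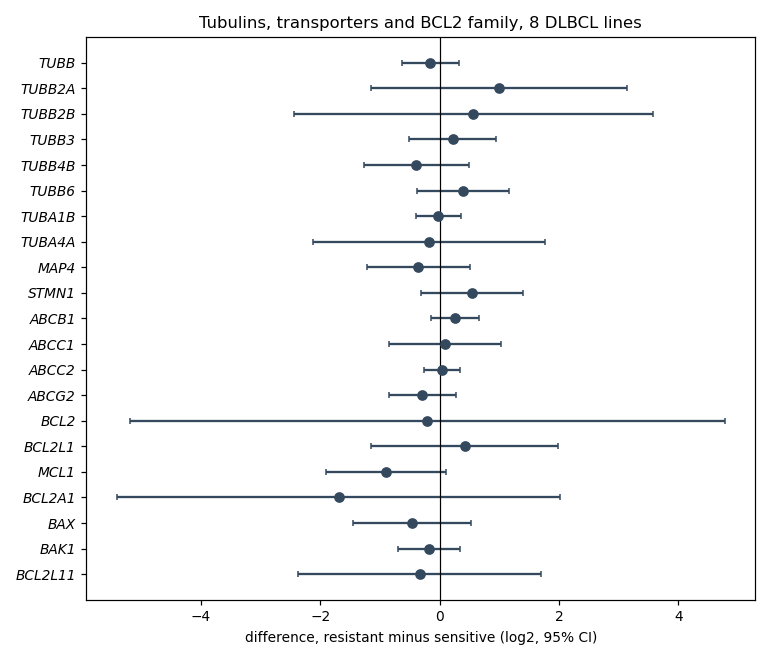
Difference in log2 level between the 4 resistant and 4 sensitive lines (horizontal axis, resistant minus sensitive) for 21 tubulins, microtubule binding proteins, efflux pumps and BCL2 family genes, with 95% confidence intervals from limma. Every interval shown includes 0 (ABCC5, whose interval lies above 0, is not among the genes plotted), from that of ABCC2 at 0.04 to the widest, that of BCL2 at −0.20.

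In the apoptosis machinery the largest difference was in a death receptor and not in the BCL2 family. FAS, the receptor for the FAS ligand, on chromosome 10, was at 2.78 in DB, 7.04 in OCI-Ly7, 3.84 in RIVA and 6.53 in SU-DHL-8, against 11.06 in FARAGE, 7.06 in OCI-Ly19, 8.35 in SU-DHL-5 and 10.35 in MC-116. OCI-Ly7 and OCI-Ly19 were almost level, and the absence of overlap rests on this small gap. The difference was −4.16 (95% CI: −6.97, −1.35), all 5 probe-sets had the same sign, and 2 of them were without overlap. The neighbouring gene ACTA2, placed among the stromal markers for its smooth muscle actin, was between 5.46 and 6.31 in the resistant and between 6.48 and 7.97 in the sensitive lines, and 2 of its 3 probe-sets were lower in the resistant lines. Among the survival genes BCL2 was at 10.72, 4.03, 12.47 and 6.61 in DB, OCI-Ly7, RIVA and SU-DHL-8, against 9.29, 10.91, 4.22 and 10.23 in FARAGE, OCI-Ly19, SU-DHL-5 and MC-116. Each class thus held lines with BCL2 near the floor and lines with a high level, and the interval of the difference (95% CI: −5.19, 4.78) allows a large effect in either direction. MCL1 differed by −0.89 (95% CI: −1.90, 0.11), BCL2A1 by −1.69 (95% CI: −5.41, 2.02), BCL2L1 by 0.42 (95% CI: −1.15, 1.99), BAX by −0.46, BAK1 by −0.18 and BCL2L11, which encodes BIM, by −0.33. BIK, a BH3-only protein, was at 5.20 in SU-DHL-8 and 7.55 in DB and otherwise at 8.99 or above in all lines compared.

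Markers of B-cell stage gave a mixed picture. Of the 13 germinal centre markers 9 were lower in the resistant lines (median −0.54, between −1.59 and −0.15 as each line was left out), led by LMO2 and NEK6, while BCL6 (−1.17), MME (−0.22) and MYBL1 (0.15) overlapped widely. The 15 activated B-cell markers had a median of 0.13, the 14 mature B-cell markers of 0.13 and the 12 plasma cell markers of 0.24. Without RIVA the activated B-cell median was −0.25 and the plasma cell median −0.11, without SU-DHL-5 the activated B-cell median was −0.13, and without OCI-Ly7 the plasma cell median was 0.003. CD79B, the signalling chain of the B-cell receptor, was at 11.40, 11.55, 11.81 and 12.05 in DB, OCI-Ly7, RIVA and SU-DHL-8, against 9.49, 10.32, 11.29 and 11.04 in FARAGE, OCI-Ly19, SU-DHL-5 and MC-116, but only 1 of its 3 probe-sets was higher in the resistant lines. CD22, an inhibitory receptor of B cells, differed by −2.06 with 4 of 4 probe-sets of the same sign. FARAGE stood apart in that BACH2 (3.81) and FOXP1 (3.95) were near the floor, whereas the other 7 lines were at 8.45 and 9.72 or above.

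The antigen presentation genes were lower in most members. All 15 MHC class I genes measured had a negative difference, against 47.5% of all genes, with a median of −0.59 and 0 at an unadjusted p under 0.05. DB weighed heavily, since HLA-E was at 6.44 there and between 10.12 and 12.09 in the other 7 lines. Without DB 14 of the 15 were lower and the median was −0.21, and 12 were lower without RIVA. With the probe-set of the highest mean for each gene the median was −0.30. These genes share a regulator and are not independent. Of the 12 MHC class II genes 7 were lower (median −0.72), but without DB or without MC-116 5 were lower and the median was 0.06 in each case, and with the probe-set of the highest mean it was −0.20. HLA-DQA1, on its probe-set of the largest SD, was between 3.93 and 4.36 in the 4 resistant lines, and was at 3.83 in FARAGE, 9.69 in OCI-Ly19, 11.67 in SU-DHL-5 and 11.76 in MC-116. It was thus at the floor in all resistant lines and in 1 sensitive line. The 3 probe-sets of this highly polymorphic gene disagreed, as another of them differed by 2.01 in the opposite direction. HLA-DQB1, on its probe-set of the largest SD, differed by −3.53 and had the same line, FARAGE, at the floor. Its 7 probe-sets also disagreed in size, from −3.53 to 0.26, with 6 of them below 0. HLA-DRA differed by 0.51 and CIITA, the master activator of class II, by −0.79.

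Interferon-stimulated genes were moderately lower in DLBCL, with 31 of 46 below 0 and a median of −0.23 (26 to 34 and between −0.44 and −0.03 as each line was left out), against 43 of 46 and −1.41 in the vincristine resistant MM lines, where 53.8% of all genes were lower (41 to 45 of 46 and between −1.83 and −0.90 as each MM line was left out); the difference between the diseases was not called for any probe-set. In MM the level was uneven among the sensitive lines, with IFI6 at 6.17 in KMM-1, 6.82 in LP-1, 6.83 in MOLP-8 and 7.68 in NCI-H929, against 6.34 in MM1S, 6.82 in OPM-2, 11.07 in RPMI-8226 and 10.47 in U-266. In DLBCL IFI6, an antiviral membrane protein, was at 5.69 in DB, 6.55 in OCI-Ly7, 6.88 in RIVA and 6.74 in SU-DHL-8, against 7.90 in FARAGE, 7.08 in OCI-Ly19, 7.68 in SU-DHL-5 and 7.32 in MC-116, a difference of −1.03 (95% CI: −1.71, −0.34). USP18, a brake on interferon signalling, had no overlap either and differed by −0.93, with RIVA and FARAGE at the same level of 5.45. PARP9 (−2.68), DTX3L (−2.52) and PARP14 (−1.94), an ADP-ribosyltransferase pair with its ubiquitin ligase partner and a related enzyme, form a cluster on chromosome 3. PARP9 was at 5.35 in DB, 5.26 in OCI-Ly7, 7.70 in RIVA and 6.21 in SU-DHL-8, against 9.81 in FARAGE, 8.35 in OCI-Ly19, 10.05 in SU-DHL-5 and 7.05 in MC-116. DTX3L was at 5.00, 4.61, 8.73 and 8.48 in DB, OCI-Ly7, RIVA and SU-DHL-8, against 9.62, 9.86, 10.18 and 7.24 in FARAGE, OCI-Ly19, SU-DHL-5 and MC-116. DB and OCI-Ly7 were the lowest lines for both genes. Other members went the other way. The antiviral GTPase MX2 differed by 2.29 and SAMD9 by 1.79, both lower in the MM resistant lines (−1.16 and −1.69).

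The starts of PARP9 and DTX3L face away from each other with 37 bases between them in RefSeq (GRCh38.p14) and a match to the interferon-stimulated response element begins between them and ends 4 bases inside DTX3L. PARP9, DTX3L and PARP14 are shown because these members of the list lie in a cluster and were lower in the resistant lines. IFI6, on chromosome 1, was lower without overlap and is shown as well. The stretches below have capitals at each match to GAAANNGAAA or, on the other strand, TTTCNNTTTC. They are chr3:122564301-122564341 (plus strand, ending 4 bases into DTX3L), chr3:122680779-122680838 (plus strand, the last 60 bases before PARP14) and chr1:27672263-27672362 (minus strand, before IFI6).
PARP9 and DTX3L: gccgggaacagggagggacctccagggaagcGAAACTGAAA
PARP14: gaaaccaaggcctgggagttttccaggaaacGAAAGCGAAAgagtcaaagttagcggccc
IFI6: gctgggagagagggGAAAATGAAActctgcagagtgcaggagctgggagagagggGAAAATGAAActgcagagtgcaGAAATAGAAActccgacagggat
In windows of 300 bases around the starts, 3.57% of all 35116 RefSeq windows held a match. Counted by gene, 4.38% of the 27305 genes with a window had a match. Of the measured interferon-stimulated genes 36 had a window and 25 of them a match (69.4%), among them SAMD9, which was higher in the resistant lines. Of the members with a window and an unadjusted p under 0.05 in limma, 3 of 5 lower and 1 of 1 higher had a match. A match is a description of the sequence and not of binding.

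The cytoskeleton and the remaining lists added single genes. Of the 18 actin and intermediate filament genes measured, 14 were lower and 4 higher in the resistant lines, and members ran from −3.47 to 2.58. Their median was −0.24, and lay between −0.40 and −0.17 as each line was left out, with 10 to 14 lower. Thymosin β4 (TMSB4X), which binds free actin, was between 13.14 and 13.73 in the resistant and between 13.83 and 14.17 in the sensitive lines, and tropomyosin TPM4 differed by −1.72 with 4 of 5 probe-sets of the same sign. Vimentin (VIM), an intermediate filament protein that binds to microtubules, was at 8.20, 6.90, 6.94 and 8.22 in DB, OCI-Ly7, RIVA and SU-DHL-8, against 11.63, 13.14, 6.33 and 13.04 in FARAGE, OCI-Ly19, SU-DHL-5 and MC-116. It was high in 3 sensitive lines and lowest in the fourth. CD58, a ligand for T cells and NK cells, differed by −3.24 with SU-DHL-8 at 10.88 among the high lines. The microsomal glutathione transferase MGST3 differed by 1.08, although only 1 of its 3 probe-sets was higher. The 17 NF-κB targets had 14 members below 0 and a median of −0.50 (10 to 15 and between −0.88 and −0.06 as each line was left out), the 14 ERK feedback genes 11 and −0.34 (6 and 0.14 without OCI-Ly19), and the 18 glutathione and redox genes 14 and −0.37 (11 and −0.13 without SU-DHL-8), each with 0 members called.

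**Figure D5:**
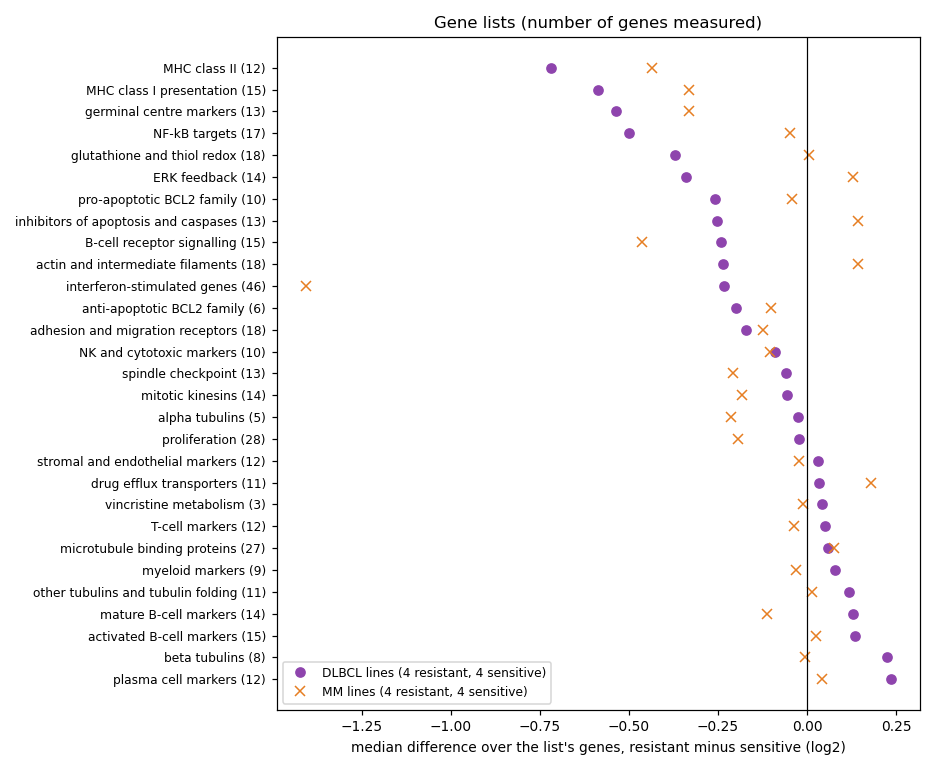
Median difference in log2 level between resistant and sensitive lines (horizontal axis) over the genes of 29 lists (rows, with the number of genes measured), for the DLBCL lines (filled circles) and the MM lines (crosses). The DLBCL medians run from −0.72 for MHC class II to 0.24 for plasma cell markers, and the MM median of the interferon-stimulated genes is −1.41.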

How the data were processed

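Total RNA of untreated lines was hybridised to Affymetrix HG-U133 Plus 2.0 arrays. The authors deposited log2 values after RMA (affy, R 3.0.1 in the submitters' processing notes), in which background is removed, arrays are quantile normalised and the probes of each probe-set are summarised. Such values compress differences near the floor and have no read depth. The number of arrays limits their precision. Values of the 8 arrays ran from 2.41 to 14.91, with array medians of 5.65 to 5.71. No scan dates or batches were given in the sources used here, and p-values measure the spread between lines. The samples were grouped by the vincristine class of the labels.

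The 62 control probe-sets were left out. Of the 54613 others, 41091 had 1 gene symbol, 1801 several and 11721 none in the platform annotation, and 41043 were matched to RefSeq by gene identifier. Differences (resistant minus sensitive) came from limma 3.58.1 (R 4.3.3) on the 8 lines, with Benjamini-Hochberg adjustment over all probe-sets and a threshold of 0.05. The confidence intervals are limma's and are not adjusted. The interaction with disease and the MM comparison used 4 and 4 MM lines as well. AUC0 was compared with exact permutation tests in Python 3.11.15.

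Genes in the 30 lists each had 1 probe-set, that with the widest spread (SD) across all 14 DLBCL lines. Of the 458 listed genes, those with no single-symbol probe-set in the annotation were not analysed here, and 1 list, with the genes named through it alone, is not reported here. Lists and comparison were chosen with earlier results of these data known. Genes named were the 12 of the smallest p in each direction, the 8 of the largest difference without overlap in each direction, up to 4 list members without overlap per list, and a set of tubulins, transporters and BCL2 family genes. Other list members, and the 3 genes called only without 1 line, were named after their values were seen.

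On simulated data for this comparison with 54613 probe-sets, limma recovered 46% of planted log2 differences of 1, 84% of 2, 82% of 4 and 96% of 5, with 6 false calls. There were 50 of each size, on probe-sets drawn at random from all, with independent normal noise. The shares therefore do not give the power for genes with a wide spread between lines, such as LMO2, at −4.38 with an adjusted p of 0.99 in limma. Alternatives were other probe-sets per gene, a filter on dim probe-sets, other priors, array weights, centred arrays, the spread of all lines, AUC0 as a slope, covariates, and each line left out.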

Additional observations from a re-analysis of the deposited data

Results flagged for a closer look

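In 9 of 139 groups of 4 lines examined, the lowest or highest line was set apart from the other 3 by over 0.829 of the range of the group (Dixon's criterion), which chance gives in about 1 of 20 groups. Among the resistant lines, DB was low for MCCC2 at 7.75 (next line 8.39) and for FAAP24 at 7.22 (next line 7.30), and high for GDAP1 at 9.70 (next line 7.44). SU-DHL-8 was low for TUBB2A at 8.92 (next line 10.68), and RIVA was high for TUBB2B at 9.59 (next line 4.45). Among the sensitive lines, OCI-Ly19 was high for NBEA at 5.50 (next line 4.38) and for TUBB2B at 6.76 (next line 4.55), MC-116 was low for PDCD6P1 at 6.67 (next line 8.86), and FARAGE was low for ABCC5 at 6.26 (next line 7.41).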

How the results depend on the processing

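The 2 calls, both of PAM, were also 2 with dim probe-sets left out, an intensity trend, a robust prior, centred arrays and serum as a covariate. There was 1 call with 1 probe-set per gene by the largest SD, 1 by the highest mean and 1 with array weights, and 0 with the spread of all 26 lines, with AUC0 as a slope over 8 or 12 lines, and with doxorubicin AUC0 as a covariate. With 1 line left out there were 0 to 2 calls, 0 without any of the 4 resistant lines; the cause was not tested, though fewer lines enter. The median of the mature B-cell markers was 0.436 without FARAGE, and lay between 0.009 and 0.436 as each line was left out. Signs turned in genes with differences near 0. With doxorubicin AUC0 as a covariate TUBB2B was −0.018, TUBB3 −0.15, ABCC1 −0.63 and ABCC2 −0.01, TUBB2B had a slope of −0.008 per 100 units of AUC0 over the 8 lines, and TUBA1B was 0.009 with array weights. As each line was left out, TUBB2B ran between −0.783 and 1.155, TUBA1B between −0.104 and 0.121, TUBA4A between −0.734 and 0.42, ABCC1 between −0.176 and 0.484, ABCC2 between −0.059 and 0.091, BCL2 between −1.685 and 1.271, BCL2L1 between −0.08 and 0.892 and BCL2L11 between −1.04 and 0.089. The AUC0 differences of doxorubicin and cyclophosphamide kept their direction as each line was left out, and that of doxorubicin missed the threshold each time. For cyclophosphamide, leaving out a line leaves too few divisions of the lines for an exact permutation p under 0.05, whatever the values. Its result against the threshold therefore decides nothing there. The interaction and the MM comparison gave 0 calls under an intensity trend and with dim probe-sets left out. No paired analysis was possible because the labels give the lines no shared replicate numbers. Precision is limited by 4 lines a class and by levels near the floor of the arrays.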

Other observations

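On the probe-set taken for each gene, few genes were low in all resistant lines and well expressed in most sensitive lines. By a rule chosen after the values were seen, a level under 5 in all 4 lines of 1 class and over 8 in at least 3 lines of the other, 3 of 19775 genes were low in the resistant DLBCL lines (PAM, HOPX and HLA-DQA1) and 0 in the sensitive DLBCL lines. In MM the counts were 0 in the resistant and 1 in the sensitive lines. For HLA-DQA1 the pattern held on its probe-set of the largest SD. Another probe-set was at 7.68 in DB, 8.34 in OCI-Ly7, 5.54 in RIVA and 10.26 in SU-DHL-8, against 5.56 to 6.48 in the sensitive lines. HOPX, an atypical homeodomain protein, was at 3.73 in DB, 4.16 in OCI-Ly7, 3.59 in RIVA and 3.57 in SU-DHL-8, against 11.94 in FARAGE, 4.12 in OCI-Ly19, 12.08 in SU-DHL-5 and 11.10 in MC-116. OCI-Ly19 was at the level of the resistant lines. Over all 8 lines the difference was −6.05 with an adjusted p of 0.99 in limma, and without OCI-Ly19 it was called with an adjusted p of 0.0013. In the 6 DLBCL lines outside the comparison HOPX was between 3.42 and 4.00, whatever their vincristine class, and in the 12 MM lines it did not exceed 5.47.

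Of the other genes called only when 1 line was left out, SH3RF1, a ubiquitin ligase scaffold, was between 3.36 and 3.79 in the resistant lines and at 6.81 in FARAGE, 6.31 in OCI-Ly19, 6.40 in SU-DHL-5 and 3.69 in MC-116. It was called without MC-116 with an adjusted p of 0.0425. HLA-DQA1, on another of its probe-sets than the one given above, was between 2.92 and 3.36 in the resistant lines and at 3.08 in FARAGE, 8.26 in OCI-Ly19, 8.32 in SU-DHL-5 and 7.81 in MC-116, and was called without FARAGE with an adjusted p of 0.0015. Each of these 3 calls came from leaving out the 1 sensitive line that was at the floor.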
